A study of Mus musculus with 12 samples.

Results

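Spermatogonia sorted from Tet1KO testes were compared with spermatogonia sorted from WT testes at 11 months of age, in 3 libraries per genotype. These 6 libraries were taken by the age and genotype in their labels and are 6 of the 12 libraries of the series. The other 6 hold both genotypes at 3 months. All groups share the C57BL6/129 strain, and each library was built by Smart-seq2 from 1000 cells gated by flow cytometry. Smart-seq2 copies full-length mRNA from small numbers of cells. The labels name no treatment and do not say which part of Tet1 was deleted, in which cells, or by which surface markers the cells were sorted. Whether the 3 libraries of a genotype stem from different animals is also not stated, so the p-values describe the spread among these libraries, and that spread may be technical.

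TET1 is a dioxygenase that oxidises 5-methylcytosine in DNA, a first step towards removing the methyl group. Spermatogonia are the mitotic germ cells that line the basement membrane of the testis tubules. A small undifferentiated set, marked by the GDNF receptor gene Gfra1, renews itself and gives rise to differentiating cells that switch on the receptor gene Kit and then, under retinoic acid, Stra8 and the meiotic programme. Sertoli cells, peritubular myoid cells and interstitial macrophages lie next to them in the testis.

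Total counts per library lay between 9572429 and 16248463 in WT and between 8599667 and 16323020 in Tet1KO. The germ cell genes Dazl and Ddx4 stood at 656 and 99.4 RPKM (counts scaled for gene length and library size) on average in WT and at 674 and 97.4 RPKM in Tet1KO, far above the Sertoli gene Sox9, at 0.2 and 0.137 RPKM. Sox9 alone does not measure the share of other cells. Prm1, a gene of later haploid cells, stood at 521 RPKM in WT and 603 RPKM in Tet1KO. The myoid gene Acta2 stood at 40.8 and 6.61 RPKM. The median was 1.995 and 0.685 RPKM for the Sertoli gene list, and 5.66 and 9.26 RPKM for the macrophage and myeloid list. The libraries differed in ways that genotype does not give. In a principal component analysis of log2 CPM (counts scaled to library size with TMM factors), the first component, with 31.7% of the variance, set replicate 1 of both genotypes against replicate 3 of both. The second, with 25.4%, set Tet1KO replicate 2 apart from the other 5, and the third, with 17.6%, set WT replicate 2 furthest from the rest. Tet1 itself (mm10 chromosome 10, 62804570 to 62908996, minus strand) was near the limit of detection. It gave 0.0631, 0.933 and 0.548 CPM in WT replicates 1, 2 and 3 and 0.0616, 1.71 and 0.418 CPM in Tet1KO replicates 1, 2 and 3. The groups overlap, and at these levels, with the deleted part not given, the gene does not check the genotype labels.

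No gene passed the test. Of 19815 genes with enough counts, 0 had an adjusted p under 0.05 in edgeR's quasi-likelihood test with Benjamini-Hochberg adjustment (0% higher and 0% lower), and the adjusted p was 1 for every gene named below. At an unadjusted p under 0.05, 170 genes were higher (0.858%) and 156 lower (0.787%) in Tet1KO. DESeq2 called 3 genes, with S100a8 and S100a9 higher (0.0101%) and Tpm2 lower (0.00505%), and limma-voom called 0, with 126 higher (0.636%) and 98 lower (0.495%) at an unadjusted p under 0.05. With the replicate number as a block edgeR called 0, with 404 (2.04%) at that level, against 326 (1.65%) without it. All 3 Tet1KO libraries lay above all 3 WT libraries for 559 genes (2.82%) and below them for 504 (2.54%). The median log2 fold change over all tested genes was 0.02. In bulk libraries such as these, fewer cells of a type and less RNA per cell cannot be told apart.

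**Figure D1:**
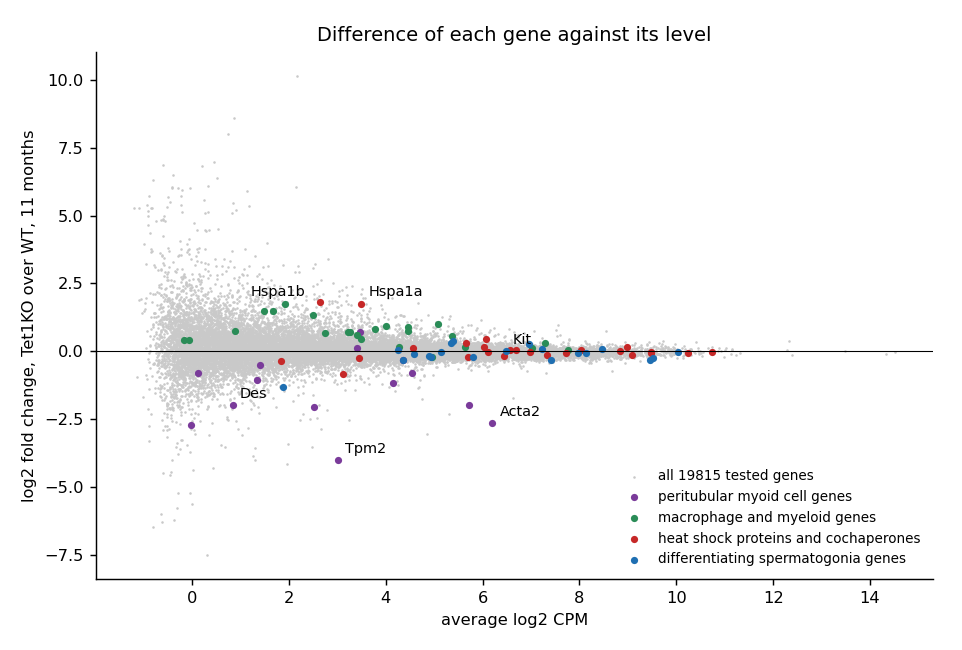
Each point is a gene tested at 11 months, with its average log2 CPM on the x axis and its log2 fold change, Tet1KO over WT, on the y axis, and 4 gene lists are coloured. Most myoid genes lie below 0, most macrophage and myeloid genes above it, and the differentiating spermatogonia genes close to it.

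How small a difference could be seen varied with the level of the gene. The 95% confidence interval of the fold change lay wholly within 2-fold for 9516 of 19815 genes (48%). Among genes with an average log2 CPM of 5 to 7 this held for 93.1%, among those from 3 to 5 for 71.2%, and among those under 1 for 0.22%. A difference of 2-fold could thus be bounded for most abundant genes and for few scarce ones.

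**Figure D2:**
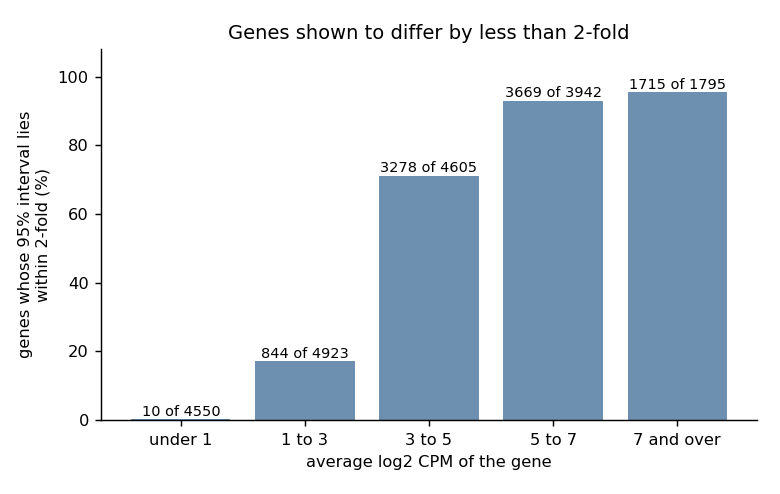
Bars give the percentage of genes whose 95% interval of the fold change, Tet1KO over WT at 11 months, lies within 2-fold, by the average log2 CPM of the gene, with the numbers of genes printed above. The share climbs from 0.22% of genes under 1 to 95.5% of genes at 7 and over.

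The inducible HSP70 genes and their cochaperone Hsph1 were among the genes that stood higher in Tet1KO. HSP70 proteins refold or hold misfolded proteins, and their genes are switched on by the factor HSF1, which binds heat shock elements, arrays of inverted GAA units. The 250 bases upstream of the RefSeq start (GRCm38.p6) are shown for the 3 genes, because Hspa1a and Hspa1b are near-identical copies and because each window holds the paired unit GAANNTTC or TTCNNGAA, each its own reverse complement so that both strands are covered, given in capitals.
Hspa1a, chr17:34972157-34972406, minus strand: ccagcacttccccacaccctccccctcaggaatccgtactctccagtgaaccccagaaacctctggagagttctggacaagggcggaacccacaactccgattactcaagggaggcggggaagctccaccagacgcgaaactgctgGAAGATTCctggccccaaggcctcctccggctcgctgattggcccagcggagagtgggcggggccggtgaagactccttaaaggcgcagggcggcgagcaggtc
Hspa1b, chr17:34959239-34959488, minus strand: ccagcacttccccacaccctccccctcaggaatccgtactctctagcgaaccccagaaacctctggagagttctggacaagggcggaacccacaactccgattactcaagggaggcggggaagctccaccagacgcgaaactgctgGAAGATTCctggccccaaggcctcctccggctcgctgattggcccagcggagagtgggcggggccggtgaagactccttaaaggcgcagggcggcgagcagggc
Hsph1, chr5:149636337-149636586, minus strand: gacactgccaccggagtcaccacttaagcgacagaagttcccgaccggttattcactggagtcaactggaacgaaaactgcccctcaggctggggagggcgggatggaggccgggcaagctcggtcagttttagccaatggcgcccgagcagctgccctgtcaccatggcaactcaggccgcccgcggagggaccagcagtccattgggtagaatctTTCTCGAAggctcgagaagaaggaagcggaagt
The first 2 windows are identical at 247 of 250 positions, and the gene bodies are close copies as well, so reads that match both may have been counted for both or dropped by the mapping quality minimum, and the counts of the pair are uncertain. The motif occurs in the same window of 14.5% of all 27025 genes with an entry, and in 9 of the 21 heat shock list genes with an entry.

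Hspa1a stood at 9.08, 4.43 and 7.78 CPM in WT replicates 1, 2 and 3 and at 11.1, 33.6 and 27.2 CPM in Tet1KO. Hspa1b stood at 3.09, 2.98 and 5.26 CPM in WT and at 5.85, 11.2 and 23.0 CPM in Tet1KO. All 3 Tet1KO libraries were above all WT libraries for both genes, with Tet1KO replicate 1 the nearest to WT. The log2 fold changes were 1.75 ± 0.46 (SE, unadjusted p = 0.0025) for Hspa1a and 1.82 ± 0.45 (unadjusted p = 0.00176) for Hspa1b, both with an adjusted p of 1 in edgeR. Gm20481, annotated on the opposite strand across Hspa1a, gave 1.73 ± 0.43, and without strand its reads and those of Hspa1a cannot be told apart. Hsph1, a nucleotide exchange partner of HSP70, stood at 56.5, 46.4 and 58.4 CPM in WT and at 70.2, 66.0 and 84.0 CPM in Tet1KO, without overlap (log2 fold change 0.45 ± 0.17). The list as a whole did not follow. Of 25 tested heat shock and cochaperone genes, 11 were higher and 14 lower, 20 had an interval within 2-fold, and the list median was -0.03. Wholly above WT lay 4 and wholly below 1, against 2.82% and 2.54% of all tested genes. The near-identical copies Hspa1a and Hspa1b and the gene Hsph1 are among the 4. The 9 genes with the motif, 6 higher and 3 lower, had a median log2 fold change of 0.16 and the 11 tested without it -0.06. Hspa1a, Hspa1b and Hsph1 are among these 9 and were named for their small p, so the contrast is only a description. The part of HSF1 in these values was not tested. Immediate early genes, which respond within minutes to stress or dissociation, had a positive fold change in 23 of 26, against 53.8% of all tested genes (median 0.24). Pairs here are libraries of the same replicate number, and the mean differences of this list in log2 CPM were -0.64, 0.77 and 0.35 for pairs 1, 2 and 3. Atf3, a stress-induced transcription factor gene, stood at 44.3, 17.4 and 51.6 CPM in WT and at 24.4, 80.0 and 94.4 CPM in Tet1KO, with overlap. Nr4a2, an orphan nuclear receptor gene, was the one member of the 26 wholly below WT, against 2.54% of all tested genes. It stood at 5.36, 1.69 and 2.74 CPM in WT and 0.246, 1.41 and 1.5 CPM in Tet1KO (-1.65 ± 0.68, unadjusted p = 0.0331, edgeR). The part of what moves the immediate early genes in the heat shock values was not tested.

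Most of the other genes with the smallest unadjusted p were scarce, the pseudogene Gm15387 being an abundant exception. The long noncoding RNA B230312C02Rik (mm10 chromosome 2, 180370491 to 180385885, minus strand) stood at 3.97, 6.01 and 10.3 CPM in WT and at 1.91, 1.71 and 2.09 CPM in Tet1KO. Every Tet1KO library was below every WT library, and the log2 fold change of -1.82 ± 0.40 had the smallest p of all genes (unadjusted p = 0.000784, adjusted p = 1, edgeR). Samd9l, an interferon-induced antiviral gene, stood at 0.126, 0 and 0.219 CPM in WT and at 0.801, 1.81 and 2.17 CPM in Tet1KO (3.81 ± 0.96). These levels are 2, 0 and 2 reads against 13, 18 and 26 reads. Rhod, a small GTPase gene of endosome movement that overlaps A930001C03Rik on the opposite strand, stood at 2.59, 1.87 and 2.74 CPM in WT and at 0.924, 0.502 and 0.334 CPM in Tet1KO (-1.99 ± 0.54). Tspan32, a tetraspanin gene of blood cells, was higher in Tet1KO (0.252, 0.0583 and 0.11 CPM against 0.985, 1.1 and 1.59 CPM). So was Gm28417, a processed transcript overlapping Ptpn18 on the opposite strand (1.26, 1.69 and 1.97 CPM against 6.22, 5.73 and 4.59 CPM). Gm34866, on the opposite strand to Clca3a1, was at or under 0.0631 CPM in WT and between 0.334 and 1.31 CPM in Tet1KO. Gm45167 and 4930587E11Rik had no read in any WT library of 11 months. In Tet1KO replicates 1, 2 and 3 Gm45167 had 38, 14 and 0 reads and 4930587E11Rik had 2, 3 and 11 reads. The tightest of these genes was Gm15387, a processed pseudogene (mm10 chromosome 15, 74093686 to 74094333, minus strand), at 61.4, 59.8 and 59.6 CPM in WT and 42.9, 44.0 and 40.9 CPM in Tet1KO. The groups are far apart for their spread (-0.50 ± 0.14), but its reads may belong to its parent gene.

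**Figure D3:**
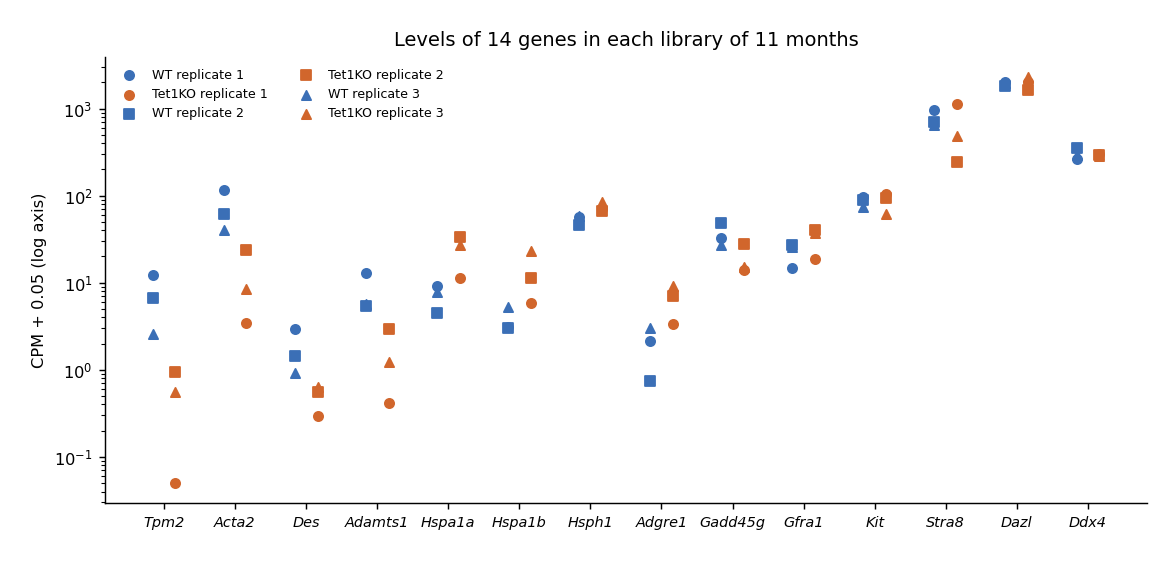
Points give CPM plus 0.05 on a log axis for 14 genes in each library of 11 months, blue for WT and orange for Tet1KO, with circles, squares and triangles for replicates 1, 2 and 3. Tpm2, Acta2, Des and Adamts1 are lower and the heat shock genes higher in every Tet1KO library, while Dazl, Ddx4 and Kit overlap.

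Genes of DNA demethylation were close to WT apart from Gadd45g. Of the paralogues of Tet1, Tet3 was bounded within 2-fold and the scarcer Tet2 was not. Tet3 stood at 25.9, 27.5 and 27.0 CPM in WT and at 28.9, 28.2 and 26 CPM in Tet1KO (0.05 ± 0.17, 95% interval -0.32 to 0.42), and Tet2 gave 0.07 ± 0.47 with an interval of -0.97 to 1.11. Gadd45g, a stress-inducible gene whose family has been tied to DNA repair and demethylation, stood at 32.7, 47.9 and 27.4 CPM in WT and at 13.8, 27.8 and 15.1 CPM in Tet1KO. It was lower in all 3 same-numbered pairs, although the groups just overlap, and the log2 fold change was -0.93 ± 0.31 (unadjusted p = 0.0119, and 0.0017 with the replicate number as a block, adjusted p = 1 in both, edgeR). Mbd4, a glycosylase gene for mismatched bases at methylated sites, lay wholly below WT (52.5, 45.6 and 48.9 CPM against 45.4, 39.7 and 37.2 CPM), a small difference of -0.27 ± 0.14. Of the 23 tested genes of this list 11 were higher and 12 lower (median -0.03), and 15 had an interval within 2-fold. The 15 methylation writers and readers had a median of 0.02, with 10 intervals within 2-fold.

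Polycomb genes, whose products repress developmental genes through histone marks and share targets with TET1 in stem cells, were nearly level. Of 34 tested, 29 had an interval within 2-fold and the median was 0.03. Rbbp7, a histone-binding subunit of several chromatin complexes, stood at 527, 490 and 505 CPM in WT and at 451, 393 and 399 CPM in Tet1KO, without overlap (-0.29 ± 0.13). Its exons overlap Txlng on the opposite strand. Imprinted genes are expressed from a single parental copy under control of DNA methylation. Of 32 tested, 21 were higher, against 53.8% of all tested genes, and 11 lower (median 0.07). Wholly above WT lay 2 of them, against 2.82% of all tested genes. These were Mest, at 4.35, 5.83 and 6.47 CPM in WT and 8.07, 8.64 and 8.19 CPM in Tet1KO (0.58 ± 0.27, overlapping Copg2 on the opposite strand), and the scarce noncoding Rian. Usp29, in the Peg3 cluster, stood at 1.58, 1.57 and 1.1 CPM in WT and at 1.42, 2.91 and 4.26 CPM in Tet1KO, with overlap. Of 19 telomere genes, the helicase gene Rtel1 had the smallest p, at 22.0, 24.1 and 12.8 CPM in WT and 25.6, 33.0 and 26.2 CPM in Tet1KO (0.52 ± 0.24). Terf2, which protects chromosome ends, was also wholly above WT (17.3, 19.2 and 16.7 CPM against 21.6, 21.0 and 21.0 CPM), and Dkc1, part of the telomerase complex and named after its values were seen, wholly below. Of the 19, 2 lay wholly above WT and 1 wholly below, against 2.82% and 2.54% of all tested genes. The list median was -0.08.

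Germ cell stage genes mostly overlapped between the genotypes, as did most of all tested genes. In the undifferentiated list 17 of 32 were higher and 15 lower (median 0.07), and 6 intervals lay within 2-fold, in a list with a median level of 1.1 RPKM in WT. Gfra1 stood at 14.6, 26.8 and 25.5 CPM in WT and at 18.6, 40.6 and 37.2 CPM in Tet1KO. It was higher in all 3 pairs, with overlapping groups, and the difference of 0.52 ± 0.36 (95% interval -0.26 to 1.31) missed the test. Its reads may include those of Gm16277 on the opposite strand. Id4, a repressor gene of stem spermatogonia, stood at 5.3, 8.93 and 6.58 CPM in WT and 7.57, 10.7 and 16.5 CPM in Tet1KO (0.74 ± 0.46). Zbtb16 gave 0.61 ± 0.48 and the surface gene Tspan8 0.60 ± 0.36. Nanos2, a translational repressor of self-renewing cells, pointed the other way, at 1.64, 1.87 and 1.75 CPM in WT and 0, 1.41 and 0.752 CPM in Tet1KO (-1.31 ± 0.95). It was the single member of the 32 that lay wholly on one side. Of all tested genes, 2.82% lay wholly above WT and 2.54% wholly below.

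Differentiating and meiotic genes were likewise level in the median. Kit stood at 97.3, 88.4 and 73.5 CPM in WT and at 105, 95 and 62.1 CPM in Tet1KO, a difference of 0.01 ± 0.23 with a 95% interval of -0.49 to 0.52, within 2-fold. Stra8, the retinoic acid target that starts meiosis, varied more between libraries than between genotypes, with 968, 701 and 645 CPM in WT and 1137, 240 and 488 CPM in Tet1KO (-0.31 ± 0.52). Crabp1, a retinoic acid binding protein gene, lay wholly below WT at 133, 181 and 163 CPM against 184, 182 and 229 CPM (-0.32 ± 0.17). The list had 7 members higher and 13 lower (median -0.05). Of 36 meiotic genes 19 were higher and 17 lower (median 0.03), 23 intervals lay within 2-fold and none separated the genotypes. Of all tested genes, 2.82% lay wholly above WT and 2.54% wholly below. The mean of the meiotic list differed by 0.16, -0.54 and 0.24 in pairs 1, 2 and 3. Sycp3, of the synaptonemal complex axis, stood at 1243, 801 and 1122 CPM in WT and at 1211, 463 and 1679 CPM in Tet1KO, and its exons overlap Chpt1 on the opposite strand. Tet1KO replicate 2 was the lowest library for both Stra8 and Sycp3. Smc1b, a meiotic cohesin gene, gave -0.26 ± 0.23, and the germ cell RNA-binding and piRNA list a median of 0.02 over 30 genes, 21 of them with an interval within 2-fold.

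Spermatid genes, whose transcripts belong to the later haploid cells, differed more between replicates than between genotypes. Prm1, the protamine gene of sperm chromatin, stood at 722, 92.6 and 77.7 CPM in WT and at 641, 262 and 130 CPM in Tet1KO. Replicate 1 was the highest in both genotypes. Of 38 spermatid genes 37 had a positive fold change, against 53.8% of all tested genes (median 0.36). The median ran from -0.01 to 1.29 when 1 library was left out. None of the 38 separated the genotypes, where 2.82% of all tested genes lay wholly above WT and 2.54% wholly below. The members share libraries, so their number is not a number of independent observations. The summed CPM of the list was 3917, 1081 and 663 in WT and 3727, 2291 and 785 in Tet1KO.

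The proteasome genes were slightly but widely lower. The proteasome degrades ubiquitin-tagged proteins, with a catalytic core and a regulatory cap. Of 47 tested genes 42 had a negative fold change against 46.2% of all tested genes, and 4 lay wholly below WT against 2.54%. In all 3 pairs 19 were lower, against 11.3% of all tested genes. Abundant genes in general leaned the same way. Among 1795 genes with an average log2 CPM of 7 and over, 42 lay wholly below WT and 9 wholly above. Among 4550 genes under 1, 149 lay below and 216 above. The proteasome members share libraries and are not independent observations. The list median was -0.13, and 45 of 47 intervals lay within 2-fold. The list mean in log2 CPM was 7.5, 7.55 and 7.65 in WT and 7.43, 7.42 and 7.48 in Tet1KO, without overlap. Psmd5, a chaperone of cap assembly, stood at 333, 389 and 325 CPM in WT and at 313, 296 and 239 CPM in Tet1KO (-0.30 ± 0.16). Psmd14, the deubiquitinase of the cap, stood at 462, 439 and 485 CPM in WT and at 395, 330 and 435 CPM in Tet1KO (-0.26 ± 0.14). Of 28 antioxidant enzyme genes 21 had a negative fold change (median -0.10), 4 were lower in all 3 pairs against 11.3% of all tested genes, and 1 lay wholly below WT against 2.54%. Their mean log2 CPM per library was 5.87, 5.82 and 5.81 in WT against 5.70, 5.73 and 5.66 in Tet1KO. Prdx3, the mitochondrial peroxiredoxin gene, lay wholly below WT (45.4, 42.4 and 43.9 CPM against 29.4, 38 and 40.4 CPM), and Sod1 gave -0.23 ± 0.19. The 2 lists had no member past the test.

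Most DNA replication, break repair and respiratory chain genes had a 95% interval within 2-fold, as did 48% of all tested genes. Nearly all members of these lists had a mean of at least 5 CPM, and the share rises with the level. It was 71.2%, 93.1% and 95.5% among all tested genes with an average log2 CPM of 3 to 5, 5 to 7, and 7 and over. Of 50 DNA replication and mitosis genes, 48 had an interval within 2-fold. In this list 36 were lower, against 46.2% of all tested genes, and 14 higher (median -0.06). Wholly below WT lay 2 of them, against 2.54% of all tested genes. All 50 had a mean of at least 5 CPM, and over all tested genes of that level the median was -0.0005. The list mean differed by 0.09, -0.21 and -0.10 log2 CPM in pairs 1, 2 and 3, so pair 1 went the other way. Rfc2, a clamp loader subunit gene, stood at 157, 194 and 175 CPM in WT and 157, 156 and 121 CPM in Tet1KO (-0.28 ± 0.15). All 34 double strand break repair genes had an interval within 2-fold, with fold changes from -0.22 to 0.23 on the log2 scale. Of 87 respiratory chain genes 76 had such an interval (median 0.07), and Ndufa9, an accessory subunit of complex I, lay wholly below WT (240, 276 and 279 CPM against 224, 206 and 220 CPM, overlapping 1700018A23Rik on the opposite strand). Cytosolic ribosomal protein genes had a median of 0.11 over 89 genes, but pair differences of -0.12, 0.01 and 0.29, and the median ran from -0.24 to 0.27 when 1 library was left out. The p53 targets were split, with the stress cytokine gene Gdf15 wholly above WT (2.27, 1.11 and 0.987 CPM against 2.77, 3.01 and 4.59 CPM) and the cyclin gene Ccng1 wholly below (137, 132 and 162 CPM against 97.4, 128 and 132 CPM). Intervals within 2-fold were fewer in other lists, with 13 of 25 cell cycle inhibitor and p53 target genes, 11 of 21 glycolysis genes (median -0.03) and 11 of 43 histone genes. For 29 secreted inflammatory and senescence factors 3 had such an interval, and the median of -0.03 became 0.71 without WT replicate 1 and 0.17 with the replicate number as a block. The medians were -0.04 for 30 autophagy and lysosome genes (25 with an interval within 2-fold), 0.12 for 15 mitochondrially encoded genes (13 of them) and -0.15 for 13 endothelial genes (2 of them). Among replication-dependent histone genes Hist1h2ad stood at 7.13, 20.2 and 18.4 CPM in WT and 7.33, 7.63 and 7.44 CPM in Tet1KO (-1.03 ± 0.33), with near-identical copies that make such counts uncertain.

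**Figure D4:**
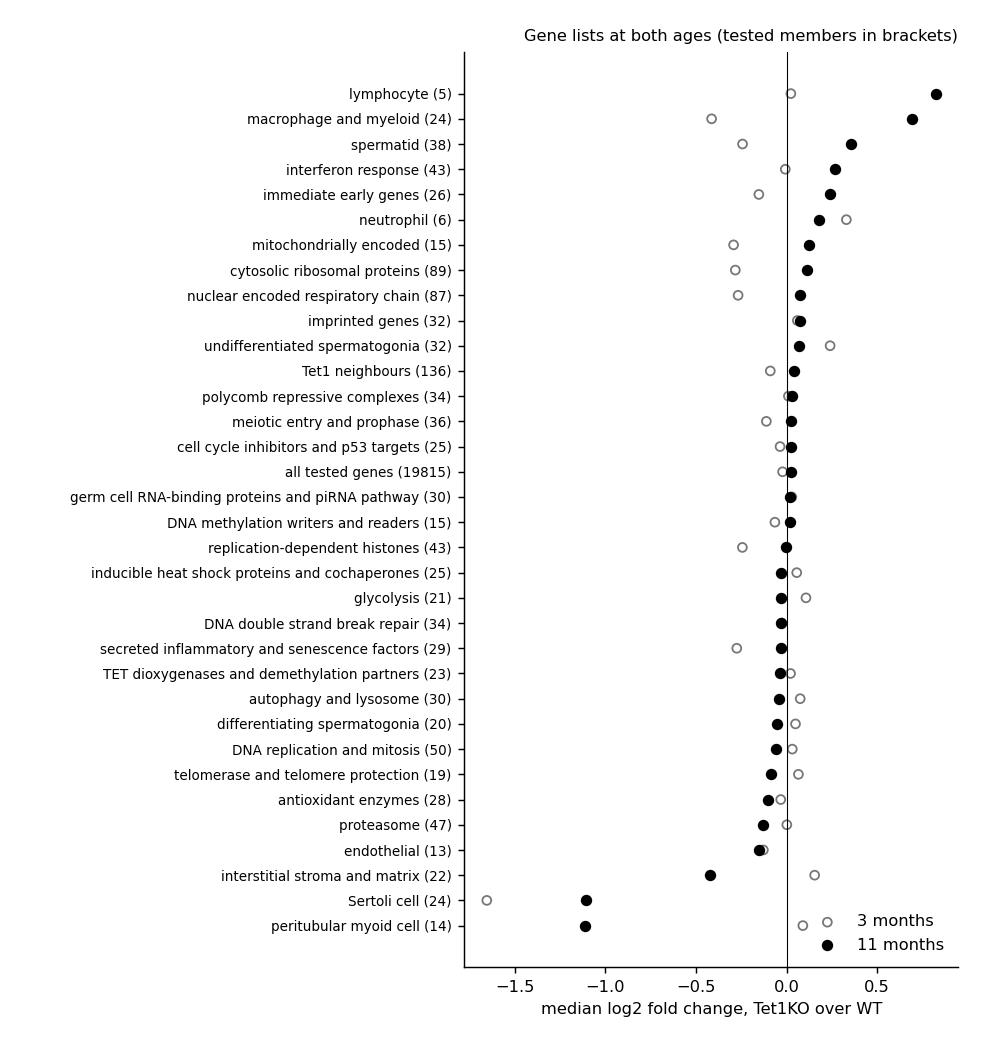
For each gene list, filled points give the median log2 fold change, Tet1KO over WT, at 11 months and open points that at 3 months, with the number of tested members in brackets. Peritubular myoid and Sertoli genes have the lowest medians at 11 months (-1.11 and -1.10), and the germ cell lists other than the spermatid list lie near 0.

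The lowest list median belonged to genes of the contractile myoid cells that wrap the tubule. Tpm2, a muscle tropomyosin gene, stood at 12.3, 6.65 and 2.52 CPM in WT and at 0, 0.904 and 0.501 CPM in Tet1KO. Acta2, smooth muscle actin, stood at 115, 62.1 and 40.8 CPM in WT and at 3.39, 23.4 and 8.52 CPM in Tet1KO. Des, the intermediate filament gene desmin, stood at 2.9, 1.4 and 0.877 CPM in WT and at 0.246, 0.502 and 0.585 CPM in Tet1KO. For each of the 3 genes every Tet1KO library lay below every WT library, and WT replicate 1 was the highest and Tet1KO replicate 1 the lowest. The log2 fold changes were -4.01 ± 1.04, -2.65 ± 0.89 and -1.97 ± 0.63, with unadjusted p = 0.0028, 0.0135 and 0.00951 and an adjusted p of 1 in edgeR. DESeq2 called Tpm2 (adjusted p = 0.0286). Of 14 tested myoid genes 12 were lower, 6 lay wholly below WT (against 2.54% of all tested genes) and 0 wholly above, and 7 were lower at an unadjusted p under 0.05 (against 0.787%), or 5 with the replicate number as a block. Beyond the 3 genes above, those lower at this level without the block were Myh11, Myl9, Lmod1 and Tagln, named after their values were seen. The list median was -1.11 and stayed between -1.65 and -1.01 when any 1 library was left out. Its mean was lower by 2.25, 0.86 and 0.56 log2 CPM in pairs 1, 2 and 3.

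The summed CPM of the myoid list was 335, 203 and 111 in WT and 74.9, 106 and 74.9 in Tet1KO. Per length, Acta2 stood at 40.8 RPKM in WT and 6.61 RPKM in Tet1KO, far under the germ cell gene Dazl at 656 and 674 RPKM. In WT, Acta2 was above the spermatogonial genes Kit (9.69 RPKM) and Gfra1 (4.08 RPKM). In Tet1KO it lay between them (9.79 and 5.87 RPKM). The part of a different share of myoid cells in these values was not tested. Mustn1, a gene of muscle and skeleton, followed the myoid list, at 11.4, 4.49 and 3.84 CPM in WT and 0.493, 1.51 and 0.752 CPM in Tet1KO (-2.86 ± 0.76). So did Adamts1, a secreted protease gene of the matrix, at 12.8, 5.31 and 5.7 CPM in WT and 0.369, 2.91 and 1.17 CPM in Tet1KO (-2.45 ± 0.61). Of 22 stroma and matrix genes 17 were lower (median -0.42), against 46.2% of all tested genes, but the median became 0.82 without WT replicate 1. Of the 22, Adamts1 and the elastic fibre gene Fbln5 lay wholly below WT, against 2.54% of all tested genes. Sertoli genes were lower in 22 of 24 (median -1.10), against 46.2% of all tested genes, but 1 lay wholly below WT, against 2.54%. The pair differences of the Sertoli list were -0.88, -1.44 and 0.50. Cldn11, of the blood-testis barrier, stood at 1.51, 6.83 and 0.548 CPM in WT and 1.48, 0.301 and 0 CPM in Tet1KO. Without WT replicate 2 the Sertoli median was -0.51. Their summed CPM was 651, 603 and 429 in WT and 453, 413 and 385 in Tet1KO. Steroidogenic Leydig cell genes were nearly absent, with 3 of 11 tested and no read of Cyp17a1 or Hsd17b3 in any of the 6 libraries.

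**Figure D5:**
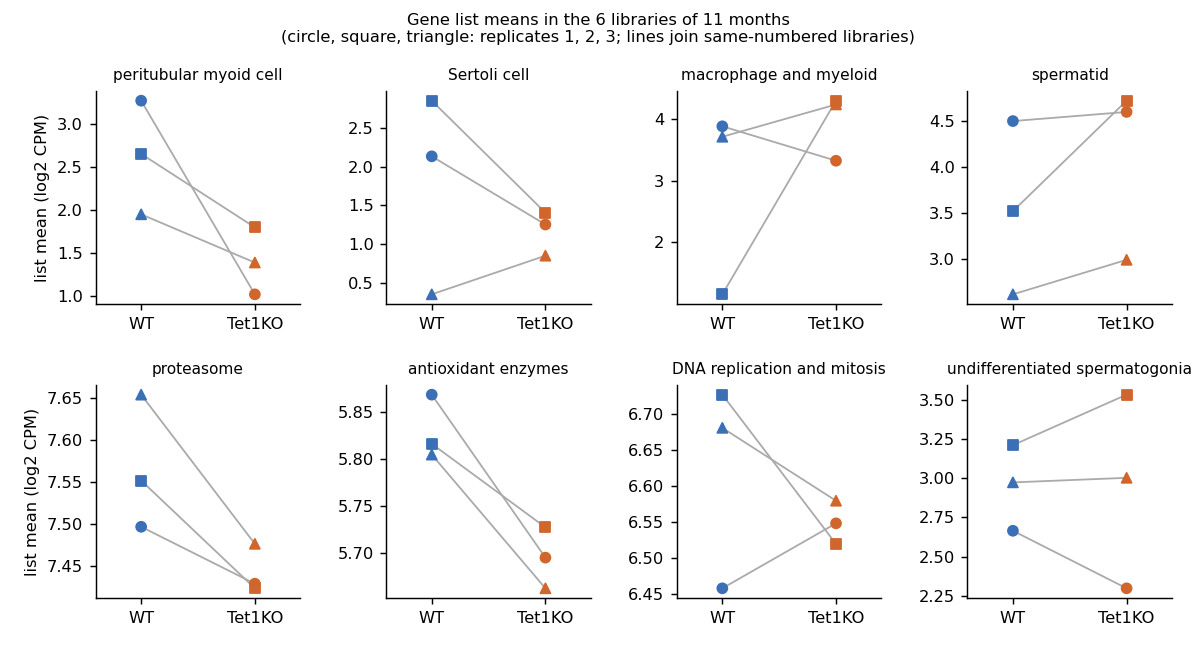
Each panel gives the mean log2 CPM of a gene list in the 6 libraries of 11 months, WT in blue and Tet1KO in orange, with lines joining libraries of the same replicate number. The myoid, proteasome and antioxidant means are lower in Tet1KO in all 3 pairs without overlap, and the macrophage and myeloid panel turns on WT replicate 2, at 1.16.

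Macrophage and other myeloid genes leaned the other way, with WT replicate 2 far below the other libraries. Of 24 tested 23 were higher (median 0.69), against 53.8% of all tested genes, and 3 lay wholly above WT, against 2.82%. The list mean was 3.88, 1.16 and 3.71 log2 CPM in WT and 3.32, 4.29 and 4.23 in Tet1KO. The pair differences were -0.56, 3.13 and 0.52. Without WT replicate 2 the median was 0.23. Adgre1, the macrophage marker F4/80, stood at 2.08, 0.7 and 2.96 CPM in WT and at 3.26, 7.03 and 9.02 CPM in Tet1KO (1.76 ± 0.60, unadjusted p = 0.0124, adjusted p = 1, edgeR). Ptprc, the common leukocyte antigen CD45, stood at 5.3, 0.933 and 5.26 CPM in WT and at 5.79, 15.3 and 7.77 CPM in Tet1KO (1.33 ± 0.59). The summed CPM of the list was 1316, 116 and 1140 in WT and 663, 1275 and 1201 in Tet1KO, and these sums overlap. The part of such cells in the differences of other genes was not tested.

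The B cell and neutrophil genes named by rule rested on few reads or on few libraries. Cd79b, a B cell receptor gene, had 0, 2 and 3 reads in WT and 12, 20 and 28 reads in Tet1KO. It was the only one of 5 tested lymphocyte genes to lie wholly above WT, against 2.82% of all tested genes. S100a8 and S100a9, which encode the paired calprotectin subunits of neutrophils, had no read in the 3 WT libraries or in Tet1KO replicate 1. In Tet1KO replicates 2 and 3 S100a8 had 156 and 221 reads and S100a9 had 56 and 74. In those 4 libraries an observed 0 is compatible with a level of 3 counts, or 0.175 to 0.329 CPM, for counting error only. DESeq2 called both (adjusted p = 0.000194 and 0.000953), while edgeR gave both an adjusted p of 1. At 3 months neither had a read in WT, and Tet1KO replicate 3 alone had reads, at 18.5 CPM for S100a8 and 8.36 CPM for S100a9. At both ages their reads thus came from Tet1KO libraries only, and through these the 2 genes passed the count filter. Mpo, the myeloperoxidase gene of neutrophil granules, went the other way, with 0, 21 and 21 reads in WT and 0, 2 and 1 in Tet1KO (-3.61 ± 1.63), and it overlaps Gm11505 on the opposite strand. Of 6 tested neutrophil genes 3 were higher and 3 lower, and Ly6g, Retnlg, Ngp and Mmp8 were at 0 in all 6 libraries. Of 43 interferon response genes 31 were higher (median 0.27), against 53.8% of all tested genes, and 4 lay wholly above WT, against 2.82%. The pair differences of the list mean were -0.0092, 0.82 and 0.12, and 10 of the 43 had a mean of at least 5 CPM. Irf1, an interferon-induced transcription factor gene, stood at 15, 24.8 and 17.3 CPM in WT and at 17.6, 42.6 and 26.6 CPM in Tet1KO (0.60 ± 0.32), higher in each pair but with overlap.

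The genes that lie beside Tet1 on chromosome 10 were taken as a list of their own. Within 10 Mb of Tet1, 136 genes were tested, of which 77 were higher and 59 lower (median 0.04). Of these 5 lay wholly above WT and 2 wholly below, shares close to those of all tested genes (2.82% and 2.54%). At an unadjusted p under 0.05 in edgeR, 4 of the 136 were higher and 0 lower, against 0.858% and 0.787% of all tested genes. Slc29a3, a lysosomal nucleoside transporter gene, stood at 0.883, 0.525 and 0.877 CPM in WT and at 1.85, 2.11 and 2.01 CPM in Tet1KO (1.38 ± 0.48). Bicc1, an RNA-binding protein gene that overlaps 4930533K18Rik on the opposite strand, stood at 4.1, 5.78 and 4.6 CPM in WT and at 5.6, 9.84 and 12.4 CPM in Tet1KO (0.94 ± 0.35). Atoh7, a neuronal transcription factor gene, gave 0.189, 0.292 and 0.548 CPM against 0.493, 2.51 and 1.84 CPM.

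The 11-month differences were set beside those of the 3-month libraries, which share no library with them, and the difference between ages was tested in the same model. It called 0 of 19815 genes (0%), with 311 at an unadjusted p under 0.05 (1.57%), and DESeq2 and limma-voom also called 0, with 355 (1.79%) and 403 (2.03%) at that level. The smallest p belonged to Gm20481 (unadjusted p = 0.00136), and Hspa1a was among the 5 smallest, with a log2 fold change of -0.65 at 3 months against 1.75 at 11 months. B230312C02Rik gave 0.52 at 3 months against -1.82. Acta2, Des and Tpm2 gave 0.38, 0.65 and -0.09 at 3 months, and the myoid list a median of 0.09 with 9 of 14 genes higher. The myeloid list had a median of -0.41 at 3 months and the Sertoli list -1.65, lower in 24 of 24 genes. Gadd45g gave 0.26 and the proteasome list a median of 0.00. For no gene was the difference between ages past the threshold, so none of these patterns is shown to be particular to 11 months.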

How the data were processed

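Per the file headers, the authors' deposited table holds raw counts of fragments per gene for 53715 genes, made with featureCounts 1.6.2 on GENCODE vM17 without strand, with a mapping quality minimum of 30 and with fragments that match several places or genes counted for each. HISAT2, SAMtools and the build mm10 are named in the submitters' processing notes. Symbols matched 53620 genes. The counts of all 12 libraries were fitted with edgeR 4.0.16 (R 4.3.3, TMM, filterByExpr, 1 mean per group), and Tet1KO was set against WT at 11 months with the two-sided robust quasi-likelihood F test and Benjamini-Hochberg adjustment at 0.05. CPM and RPKM were computed from the counts, and standard errors from the F statistic. The procedure was tested on simulated data. Alternatives were DESeq2 1.42.0, limma-voom (limma 3.58.1), other scalings, filters and samples, and each library left out. The libraries and gene lists were chosen with earlier results of these data known, and lists have no test.

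Genes named are 12 fixed ones, the 15 with the smallest p, the 3 with the smallest p in each list, DESeq2 calls, and the 5 with the smallest p between ages. Libraries of the same number at 11 months deviated together from their group means (correlations 0.37, 0.17 and 0.33, each the best match) and have adjacent library codes, so they were taken as pairs from the data. At 3 months the correlations were -0.59, -0.18 and 0.30. Replicates differed by more than counting noise (chi-square per degree of freedom at least 23.4).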

Additional observations from a re-analysis of the deposited data

Results flagged for a closer look

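For 7 of the 125 genes named by rule all libraries of each age separated the genotypes in opposite directions at 11 and at 3 months. Most rules name genes by a small p at 11 months or between ages, which favours such genes. The share of all tested genes that do so was not counted. None had a difference between ages past the threshold in edgeR (adjusted p = 1 for each), so the contrast is a description. The heat shock gene Hspa1b had a log2 fold change, Tet1KO over WT, of 1.82 at 11 months and -0.45 at 3 months (unadjusted p of the difference 0.0040). Gm20481, which shares reads with Hspa1a, gave 1.73 and -0.80 (unadjusted p = 0.00136). The stress cytokine gene Gdf15 gave 1.23 and -1.41 (unadjusted p = 0.00386), and the histone gene Hist1h2bk 1.12 and -1.66 (unadjusted p = 0.00573). The muscle light chain gene Myl3 gave -0.84 and 2.23 (unadjusted p = 0.00330). Rbbp7, the histone-binding protein gene, gave -0.29 and 0.14 (unadjusted p = 0.0329), and the clamp loader gene Rfc2 -0.28 and 0.24 (unadjusted p = 0.0303).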

How the results depend on the processing

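The count of 0 genes past the threshold at 11 months held under every alternative run except DESeq2, which gave 3 genes (the cause was not tested). With each library left out it stayed at 0 (lowest and highest both 0), while genes at an unadjusted p under 0.05 ran from 323 to 714, the latter without Tet1KO replicate 1, against 326 with all libraries. The difference between ages stayed at 0 genes in all alternatives run. With the replicate number as a block, pairing the libraries of 11 months, 0 genes passed and 404 (2.04%) had an unadjusted p under 0.05, so the block changed no call. Only the 6 libraries of 11 months with this block gave 627 at that level. Of 1953 values for 125 named genes, 1909 kept their direction and side of the threshold, 3 became calls (DESeq2) and 41 in 15 genes turned sign, all from values without a call. Under limma-voom Tet1 gave -0.023, Sycp3 -0.22, Dazl -0.0089, Ddx4 0.0071 and Alas2 -0.30. Under the replicate block Kit gave -0.010, Sycp3 -0.080 and Alas2 -0.11 in both fits of all 12 libraries, and -0.018, -0.089 and -0.11 in the fit of the 6 libraries. With 1 library left out the log2 fold changes that turned ran from -1.12 to 1.28 for Tet1, -0.16 to 0.33 for Tet2, -0.14 to 0.20 for Kit, -1.08 to 0.074 for Stra8, -0.33 to 0.45 for Sycp3, -0.077 to 0.15 for Dazl, -0.12 to 0.094 for Ddx4, -0.61 to 2.02 for Prm1, -1.45 to 0.79 for Sox9, -0.092 to 0.65 for Syce3, -2.50 to 0.16 for Hist1h2af, -4.23 to 0.81 for Prlr, -3.50 to 5.02 for Cd3g, -1.38 to 0.13 for Tek and -0.35 to 0.50 for Alas2. Of 33 list medians 23 turned sign under some alternative and 10 did not, and 11 of 561 values moved by more than the spread between replicates. Intervals of scarce genes were wide, and the parts of depth and of the spread between libraries in this were not tested. No scaling moved the median of all genes by over 0.1 on the log2 scale.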
